A study of Homo sapiens with 4 samples.

Results

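Gastric mucins and stomach lineage markers are genes whose products coat and protect the stomach surface or mark cells of stomach origin, and 10 of them were followed in gastric cancer cells given a homeopathic plant preparation. The genes were chosen by name, as MUC1, MUC5AC, MUC6, TFF1, TFF2, GKN1, PSCA, CLDN18, SOX2 and GATA6, and each was read from the array's transcript clusters that the platform annotation pairs with exactly 1 gene symbol. A transcript cluster is a set of probes for 1 transcript locus. Of the 10 genes, 9 had such a cluster, 1 each, among 21214 clusters with at least 1 symbol. MUC5AC had none and is not analysed here. The cells were AGS, an established line from a human gastric adenocarcinoma. The 2 ornithogalum arrays came from AGS cells given 0.01% ornithogalum for 36 h, and the 2 vehicle arrays from AGS cells given ethanol for the same time. Their total RNA was hybridised to Affymetrix Human Gene 1.0 ST arrays, 1 array a replicate. Arrays have no sequencing depth, and precision is limited by there being 2 per group. The labels name biological replicates without stating separate cultures or days, and a p-value here covers the spread among these 4 arrays alone.

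The stomach is lined by a mucus layer built from gel-forming mucins, large proteins densely covered with O-linked sugars. MUC5AC comes from the surface (foveolar) cells and MUC6 from the mucous neck and deep gland cells, and the trefoil peptides TFF1 and TFF2 are secreted along with them. MUC1 differs in being anchored in the apical membrane, where its extracellular part forms a barrier and its short cytoplasmic tail takes part in signalling. SOX2 and GATA6 are transcription factors that pattern the foregut and the endoderm. Gastric tumours often lose some of these markers and keep others.

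Values are log2 expression as deposited, and differences are ornithogalum minus vehicle on that log2 scale. The words "rose", "fell", "higher" and "lower" refer to an adjusted p under 0.05 by limma. Limma is a linear model that draws each cluster's variance toward a value common to all clusters. The test was two-sided, with Benjamini-Hochberg adjustment over all 21214 clusters. The question was which of these genes differed in transcript level between treated and vehicle cells. MUC1, TFF1 and PSCA fell and SOX2 rose, while MUC6, TFF2, GKN1, CLDN18 and GATA6 did not pass the test. Thus 3 of the 9 genes fell, where 12.6% of all tested clusters did, and 1 rose, where 6.57% did. With so few genes these shares say nothing particular about the group. When either vehicle array was left out, 0 of the 21214 clusters passed in limma, with 4192 (without replicate 1) and 3986 (without replicate 2) at an unadjusted p under 0.05. In those fits the spread comes from the ornithogalum pair alone and the lone vehicle array is assumed to vary alike. The pooled SD between arrays of a group was 0.258 log2 units for ornithogalum and 0.14 for vehicle. The log2 differences without vehicle replicate 1 and without vehicle replicate 2 were -2.53 and -2.49 for MUC1, -0.69 and -0.51 for TFF1, -0.82 and -0.73 for PSCA, and 0.92 and 0.66 for SOX2. The groups' arrays did not overlap in 6 of the 9 genes, against 62.2% of all clusters. The median difference of the 9 genes was -0.01 and that of all tested clusters 0.04. A lower bulk level cannot tell fewer cells that make a transcript from less transcript per cell.

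**Figure D1:**
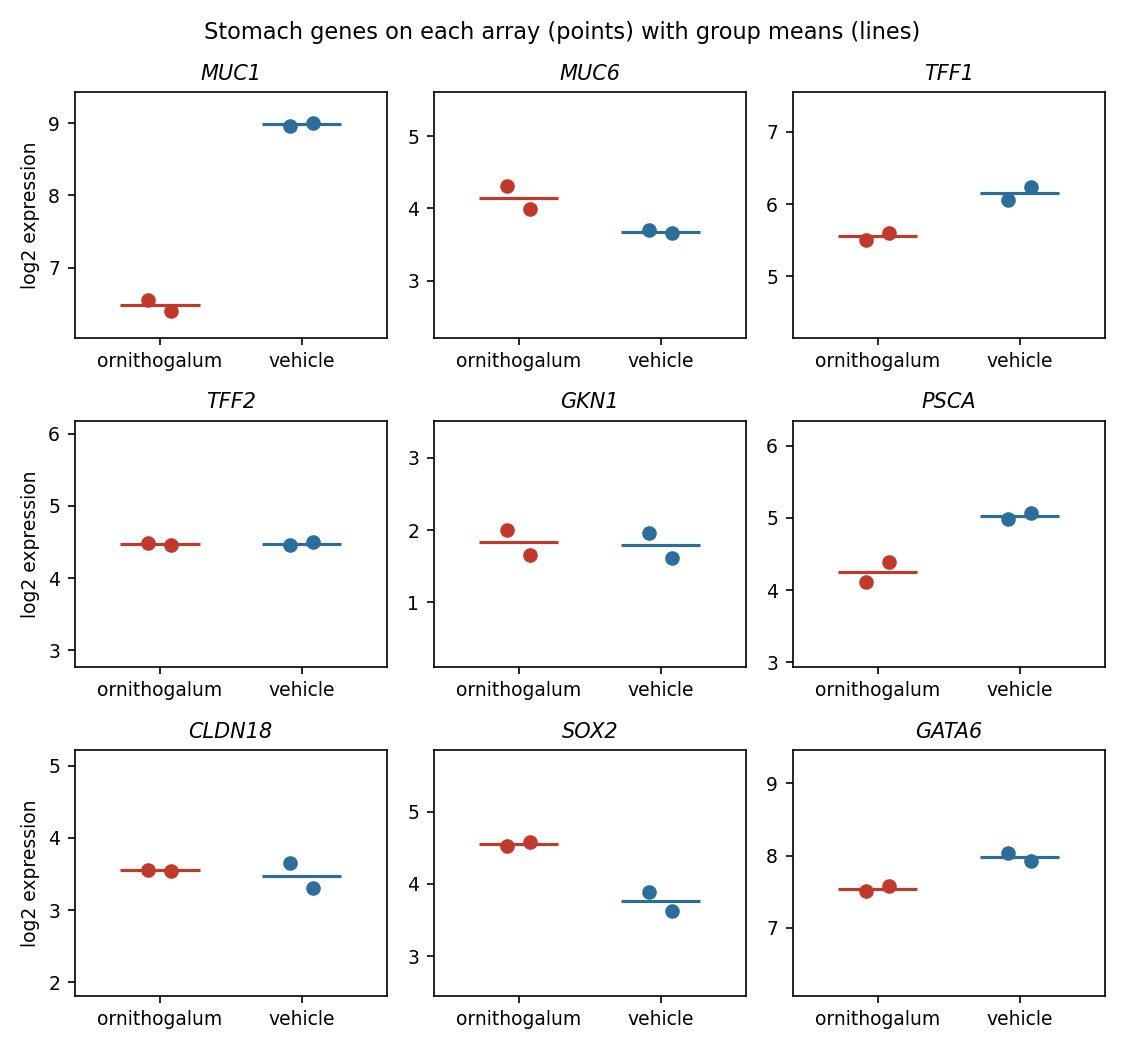
Log2 expression of the 9 measured genes on each array (points) with the group mean (line), ornithogalum left of vehicle; each panel spans the same number of log2 units. MUC1 sits at 6.56 and 6.39 in ornithogalum cells, against 8.96 and 9.01 in vehicle cells, the widest gap of the 9 panels.

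The start regions of the 2 called genes with the largest fall and the only rise are printed so that they can be compared. Both come from RefSeq's promoter table for GRCh38.p14, whose windows start 250 bases before a transcript's first base and end 50 bases into it. Among the rows of it that were read, 5 of the 10 genes had a window. This count does not show which genes the full table lacks. The MUC1 window is chr1:155192866-155193165 on the minus strand and the SOX2 window chr3:181711675-181711974 on the plus strand, both written 5′ to 3′. Capitals mark matches, on either strand, to any of 8 short motifs, which are TATAAA for the TATA box, CCAAT for its own box, GGGCGG for the SP1 family, CACGTG for E-box factors, AGATAA for the GATA family, AACAAT for the SOX family, TTCNNNGAA for the STAT family and TGANTCA for AP-1.
MUC1: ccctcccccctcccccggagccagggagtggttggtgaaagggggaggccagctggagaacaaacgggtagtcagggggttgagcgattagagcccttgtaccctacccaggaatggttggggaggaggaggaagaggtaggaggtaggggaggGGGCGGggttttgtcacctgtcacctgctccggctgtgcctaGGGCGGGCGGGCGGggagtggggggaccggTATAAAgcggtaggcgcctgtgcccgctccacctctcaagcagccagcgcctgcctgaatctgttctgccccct
SOX2: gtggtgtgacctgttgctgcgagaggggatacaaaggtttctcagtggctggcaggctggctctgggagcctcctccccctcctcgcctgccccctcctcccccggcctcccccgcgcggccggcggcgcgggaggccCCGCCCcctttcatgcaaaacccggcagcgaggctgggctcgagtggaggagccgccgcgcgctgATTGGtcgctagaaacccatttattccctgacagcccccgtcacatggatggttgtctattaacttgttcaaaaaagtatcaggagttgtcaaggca
The printed MUC1 window has a TATAAA 24 bases before the start. It also has 4 copies of GGGCGG, at 96, 54, 50 and 46 bases before the start, the last 3 overlapping each other. Another MUC1 start site in RefSeq's table puts TATAAA at 30 and GGGCGG at 102, 60, 56 and 52 bases before it. The SOX2 window has no TATAAA. It holds CCAAT at 47 and GGGCGG at 112 bases before the start, each read on the opposite strand. Of 35116 windows read, 11.5% hold TATAAA, 45% GGGCGG and 34.6% CCAAT. The GC content was 65.7% for MUC1 and 63.3% for SOX2, against a median of 58.7% over all windows read. A match of letters is a description and does not show that a factor binds there.

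Among the mucins, MUC1 had the largest difference of the 9 genes. Its log2 values were 6.56 and 6.39 in ornithogalum cells, against 8.96 and 9.01 in vehicle cells. Both ornithogalum arrays lay at least 2.41 log2 units below both vehicle arrays. MUC1 averaged 6.48 ± 0.12 in ornithogalum cells and 8.99 ± 0.03 in vehicle cells (SD, n = 2 each), so that it fell 5.69-fold (log2 difference -2.51, SE 0.12, limma adjusted p = 0.00336). The treated level was 17.6% of the vehicle level on the linear scale. By absolute size this difference ranked 28 among the 21214 clusters. The annotation pairs the MUC1 cluster with many transcript variants of the gene, so the value does not separate them.

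MUC6, the gland mucin, had a difference of the opposite sign and did not pass. Its log2 values were 4.30 and 3.99 in ornithogalum cells, against 3.70 and 3.66 in vehicle cells. The groups did not overlap, and the first ornithogalum array was the highest. Every MUC6 value lay below its array's median (4.48 and 4.62 for ornithogalum, 4.71 and 4.70 for vehicle). No detection call is given, so whether the cluster measured any transcript is not known. The log2 difference was 0.47 (95% interval 0.09 to 0.85, limma adjusted p = 0.0925), and without ornithogalum replicate 2 it was 0.63 and passed, with a limma adjusted p of 0.0205. That fit keeps the higher ornithogalum array alone and takes the spread from the vehicle pair, and over all clusters it called 3054 higher, against 1393 with all 4 arrays.

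Of 15 other mucin genes measured, 1 rose and 0 fell (6.67% and 0%, against 6.57% and 12.6% of all clusters). Their median log2 difference was 0.045, against 0.035 for all tested clusters. The one that rose was MUC15, a membrane-anchored mucin, at 3.20 and 2.66 in ornithogalum cells, against 2.05 and 1.94 in vehicle cells (log2 difference 0.93, SE 0.20, limma adjusted p = 0.0358). It did not pass when all clusters of the table were tested. The vehicle values of MUC15 were far below the vehicle array medians of 4.71 and 4.70, and without a detection call it is not known whether they measured any transcript. MUC2 and MUC5B, which lie on either side of MUC5AC on chromosome 11, had log2 differences of 0.13 and -0.05.

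Enzymes that attach and extend the mucins' O-linked sugars formed the largest related list. Of 28 measured, 0 rose and 5 fell, a share of 17.9% against 12.6% of all clusters and a median log2 difference of -0.05. Centring each array on its median moves every cluster by the same amount, and with it this median was 0.11 and that of all clusters 0.20. FUT2, the fucosyltransferase behind secretor status that caps gastric mucin chains, was at 4.41 and 4.72 in ornithogalum cells, against 6.32 and 6.54 in vehicle cells. It fell 3.64-fold (log2 difference -1.86, SE 0.16, limma adjusted p = 0.00412). GALNT6 and GALNT12, which add the first sugar of an O-glycan, fell by 1.42 and 1.08 on the log2 scale. ST6GALNAC1, which makes the sialyl-Tn antigen, fell by 0.59, and B4GALNT3, which adds an N-acetylgalactosamine to chain ends, fell by 0.48. FUT2, GALNT6 and GALNT12 stayed below 0.05 in adjusted p in 11 of 13 other settings each, ST6GALNAC1 in 7 of 12 and B4GALNT3 in 4 of 13. ST6GALNAC1 did not pass with the replicate block, with median centring or when all clusters of the table were tested (limma adjusted p = 0.0526, 0.0682 and 0.0609). It was at 3.93 and 3.95 in ornithogalum cells, against 4.54 and 4.52 in vehicle cells. These values lay below the array medians, and no detection call shows whether they measured any transcript.

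Of the secreted protective peptides, TFF1 fell while TFF2 and GKN1 did not pass. TFF1, a foveolar trefoil peptide whose loss in mice leads to antral tumours, was at 5.51 and 5.60 in ornithogalum cells, against 6.06 and 6.24 in vehicle cells. The groups did not overlap. TFF1 averaged 5.55 ± 0.06 in ornithogalum cells and 6.15 ± 0.12 in vehicle cells (SD, n = 2 each), a 1.51-fold fall (log2 difference -0.60, SE 0.13, limma adjusted p = 0.0324). The call ended with quantile scaling (log2 difference -0.43, limma adjusted p = 0.0712) and with median centring (-0.44, limma adjusted p = 0.0748), although the direction held, and in all the call was kept in 6 of 13 other settings. It also ended without ornithogalum replicate 1 (limma adjusted p = 0.0547).

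TFF2, the trefoil peptide of mucous neck cells, was at 4.49 and 4.45 in ornithogalum cells, against 4.45 and 4.50 in vehicle cells. The groups overlapped, and the 95% interval of the log2 difference ran from -0.29 to 0.28. GKN1, a foveolar peptide often lost in gastric cancer, was at 2.01 and 1.66 in ornithogalum cells, against 1.96 and 1.62 in vehicle cells. Here the arrays within a group lay farther apart than the group means, and the interval ran from -0.44 to 0.52. The table gives no detection call, so whether the GKN1 cluster measured any transcript is not known. TFF1 and TFF2 are neighbours on chromosome 21, and TFF3, the intestinal trefoil gene on the other side of TFF2, had a log2 difference of -0.003.

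Other products of foveolar and mucous neck cells gave no calls. By limma 0 of 15 measured rose and 0 fell, against 6.57% and 12.6% of all clusters. At an unadjusted p under 0.05 there were 0, and the median log2 difference was 0.10. Only 4 of the 15 had a mean log2 value at or above the median over all tested clusters. Without a detection call it is not known which of the dimmer ones measured any transcript. The smallest p belonged to ANXA10, an annexin of foveolar cells, with a log2 difference of 0.40 (SE 0.17). It was at 2.62 and 2.24 in ornithogalum cells, against 1.96 and 2.10 in vehicle cells. Among chief, parietal and endocrine cell products 1 of 12 rose and 1 fell, 8.33% each against 6.57% and 12.6% of all clusters. Their median log2 difference was 0.23. PGC, the pepsinogen gene of chief and gland cells, was at 5.15 and 5.23 in ornithogalum cells, against 5.66 and 5.72 in vehicle cells, a log2 difference of -0.49 (limma adjusted p = 0.0414). SST, the gene of the hormone somatostatin, was at 4.02 and 3.86 in ornithogalum cells, against 3.43 and 3.43 in vehicle cells, a log2 difference of 0.51 (limma adjusted p = 0.0440). The SST values lay below the array medians, and no detection call shows whether they measured any transcript. PGC passed in 5 of 13 other settings and SST in 4 of 12. Both calls ended with the replicate block (limma adjusted p = 0.0824 for PGC and 0.0829 for SST), without ornithogalum replicate 1, with quantile and cyclic loess scaling and when all clusters of the table were tested.

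**Figure D2:**
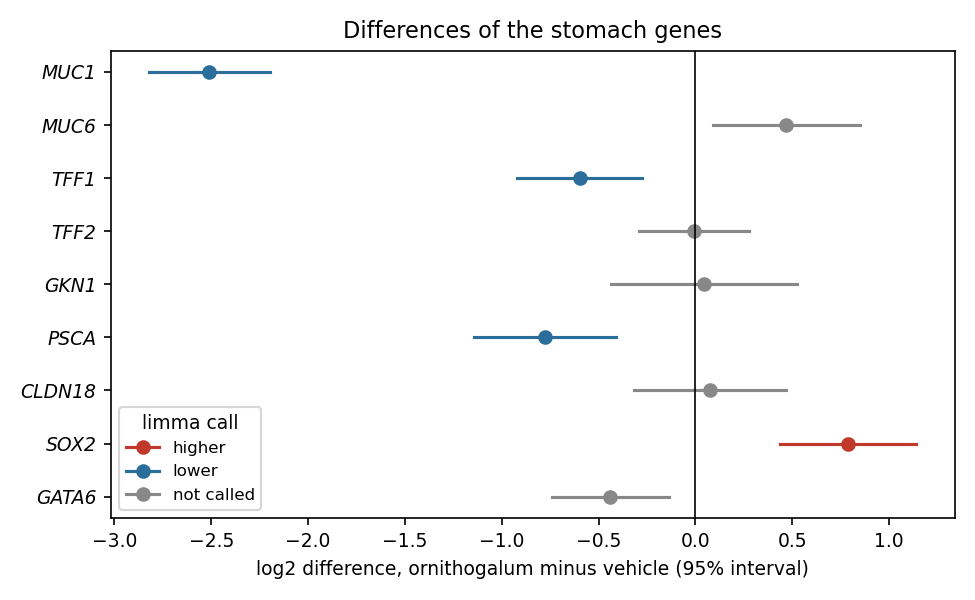
Log2 difference (ornithogalum minus vehicle) of the 9 measured genes with limma's 95% interval, coloured by call. MUC1 lies at -2.51, the other 2 genes that fell at -0.60 and -0.78, and SOX2 at 0.79.

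The surface antigen PSCA fell and the tight junction gene CLDN18 did not pass. PSCA, a small protein tethered to the outer membrane by a lipid anchor and made by the gastric epithelium, was at 4.11 and 4.39 in ornithogalum cells, against 4.99 and 5.07 in vehicle cells. Both treated arrays were below both vehicle arrays. PSCA averaged 4.25 ± 0.20 in ornithogalum cells and 5.03 ± 0.06 in vehicle cells (SD, n = 2 each), a 1.71-fold fall (log2 difference -0.78, SE 0.14, limma adjusted p = 0.0227). The call ended when all clusters of the table were tested (limma adjusted p = 0.0611).

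CLDN18, whose stomach form seals gastric epithelial junctions against acid, was at 3.56 and 3.55 in ornithogalum cells, against 3.65 and 3.31 in vehicle cells. The groups overlapped, and the 95% interval of the log2 difference was -0.32 to 0.47. Every CLDN18 value lay below its array's median (4.48 and 4.62 for ornithogalum, 4.71 and 4.70 for vehicle). No detection call is given, so whether the cluster measured any transcript is not known. CLDN18 has a lung and a stomach form that start at different exons. RefSeq's table gives CLDN18 start sites 11349 bases apart, and the cluster's annotation lists transcripts of both forms, so the value is not specific to the stomach form.

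Relatives of these genes were mixed. Of 15 other Ly6 and uPAR family genes, the family of PSCA, 1 rose and 0 fell. These are 6.67% and 0%, against 6.57% and 12.6% of all clusters, and the median log2 difference was 0.08. The one that rose was CD59, an inhibitor of the complement membrane attack complex, at 8.37 and 8.35 in ornithogalum cells, against 7.13 and 7.14 in vehicle cells, a 2.34-fold rise (log2 difference 1.23, SE 0.11, limma adjusted p = 0.00434). PSCA and CD59 share a fold and a lipid anchor, and their differences had opposite signs. LY6K and JRK, the genes on either side of PSCA, had log2 differences of 0.20 and 0.24 and did not pass.

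Of 20 other claudins, 0 rose and 3 fell (15%, against 12.6% of all clusters), with a median of 0.01 that was -0.01 after cyclic loess scaling. Without ornithogalum replicate 2, 4 claudins were called higher and 4 lower. CLDN2, which forms a cation pore, fell by 1.01 on the log2 scale to 4.24 and 4.21 in ornithogalum cells, against 5.30 and 5.17 in vehicle cells. CLDN1 and CLDN7, which tighten junctions, fell by 0.80 and 0.76. The CLDN7 call ended with median centring and when all clusters of the table were tested, where 2 claudins fell each time.

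**Figure D3:**
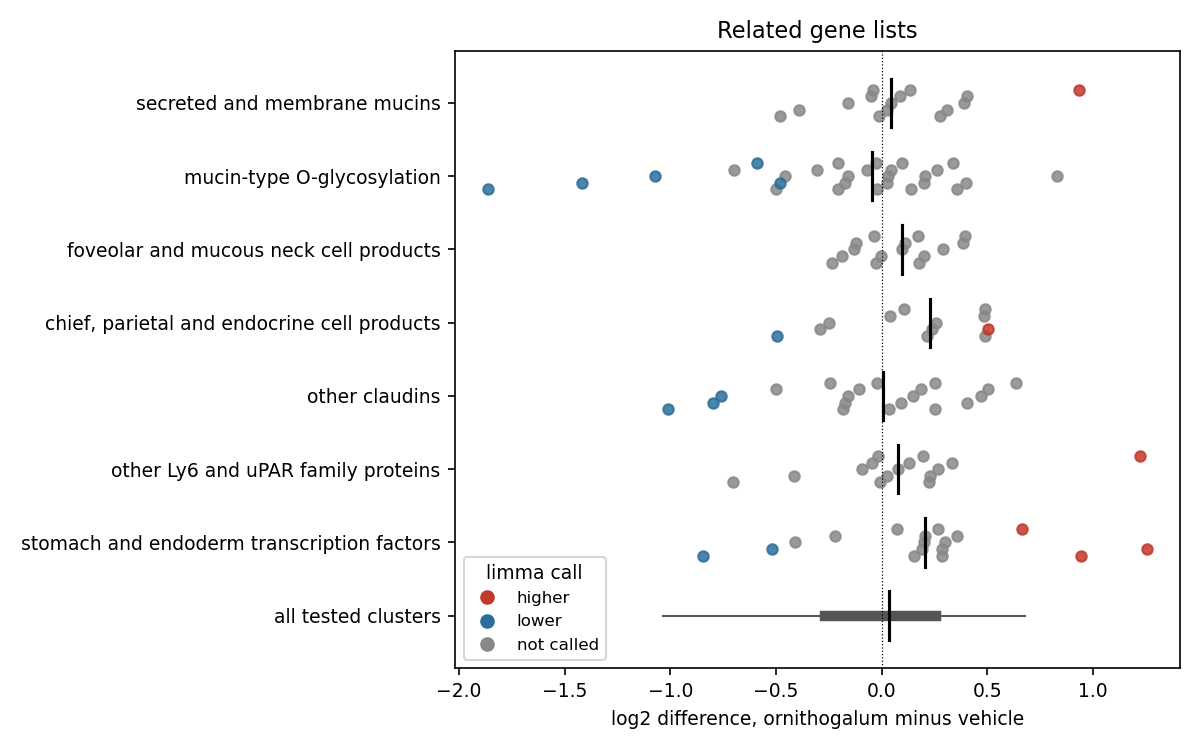
Log2 difference (ornithogalum minus vehicle) of every measured gene in 7 related lists, 1 point a gene, coloured by limma call, with the list's median as a black bar. The bottom row gives all 21214 tested clusters by median, interquartile range (thick) and 5th to 95th percentile (thin), -1.03 to 0.68, and FUT2 at -1.86 is the leftmost point.

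SOX2 and GATA6 had differences of opposite sign, and SOX2 passed the test. SOX2, which directs foregut and stomach fate and is often silenced in gastric cancer, was at 4.52 and 4.58 in ornithogalum cells, against 3.89 and 3.63 in vehicle cells. Both treated arrays were above both vehicle arrays. The vehicle values of SOX2 lay below the vehicle array medians of 4.71 and 4.70, and the treated values near the ornithogalum medians of 4.48 and 4.62. Without a detection call it is not known whether the vehicle values measured any SOX2 transcript. SOX2 averaged 4.55 ± 0.04 in ornithogalum cells and 3.76 ± 0.18 in vehicle cells (SD, n = 2 each), a 1.73-fold rise (log2 difference 0.79, SE 0.14, limma adjusted p = 0.0193). The rise was between 0.84 and 0.95 under the other scalings. The call ended when all clusters of the table were tested (limma adjusted p = 0.0544).

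GATA6, an endodermal factor that is often amplified in gastric cancer, was at 7.51 and 7.58 in ornithogalum cells, against 8.04 and 7.92 in vehicle cells. The groups did not overlap, and the log2 difference was -0.44 (95% interval -0.74 to -0.14, limma adjusted p = 0.0614). It passed in 5 of 13 other settings, among them quantile scaling (limma adjusted p = 0.0486) and cyclic loess scaling (limma adjusted p = 0.0497). With median centring its difference was -0.28 and did not pass (limma adjusted p = 0.166).

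Of 17 other stomach and endoderm transcription factors, 3 rose (17.6%, against 6.57% of all clusters) and 2 fell (11.8%, against 12.6%), and their median log2 difference was 0.21. KLF4, a factor of epithelial differentiation, was at 6.52 and 6.75 in ornithogalum cells, against 5.36 and 5.40 in vehicle cells, a 2.39-fold rise (log2 difference 1.26, SE 0.13, limma adjusted p = 0.00558). FOXA3, a forkhead factor of the endoderm, rose by 0.95 on the log2 scale, and SOX9, a factor of progenitor cells, rose by 0.67 but did not pass when all clusters of the table were tested. ESRRG, an orphan nuclear receptor found in parietal cells of the mouse, fell by 0.85, and GATA4, the close relative of GATA6, fell by 0.52. ESRRG was at 3.28 and 2.91 in ornithogalum cells, against 3.90 and 3.99 in vehicle cells. These values lay below the array medians, and no detection call shows whether they measured any transcript. GATA4 was at 6.08 and 6.18 in ornithogalum cells, against 6.69 and 6.61 in vehicle cells. GATA4 passed in 6 of 13 other settings and ESRRG in 8 of 12. GATA4 did not pass with the replicate block (limma adjusted p = 0.0796), quantile scaling (0.0568) or median centring (0.0960), nor without ornithogalum replicate 1 (0.0580) or when all clusters of the table were tested (0.0885).

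Over the 7 related lists together, 6 of 122 measured genes rose (4.92%, against 6.57% of all clusters) and 11 fell (9.02%, against 12.6%). Among measured genes next to a member on the chromosome, leaving out the members themselves, 1 passed, THBS3, a thrombospondin gene beside MUC1 on chromosome 1. It was at 3.76 and 3.72 in ornithogalum cells, against 5.08 and 5.29 in vehicle cells and fell 2.74-fold (log2 difference -1.45, SE 0.13, limma adjusted p = 0.00433). TRIM46, on the other side of MUC1, had a log2 difference of 0.12 and did not pass.

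Patterns over the 4 arrays were compared by the Euclidean distance between log2 values centred on the vehicle mean. The nearest to MUC1 were NAIP (distance 0.068), RAD50 (0.13), RWDD2B (0.16), H2BC14 (0.18) and INTS3 (0.20), which fell by 2.39 to 2.51 on the log2 scale. The nearest to SOX2 were TMEM30A (0.031), ENOPH1 (0.055), ARID4B (0.056), MET (0.056) and VBP1 (0.065). With 4 arrays such likeness says little more than that the sizes of the differences were alike.

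**Figure D4:**
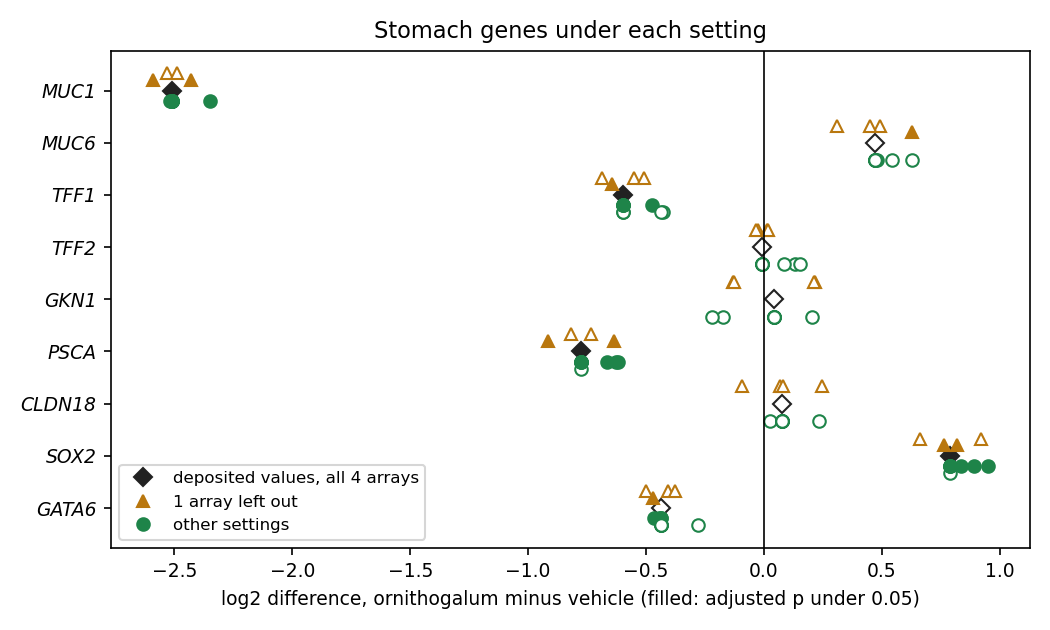
Log2 difference (ornithogalum minus vehicle) of the 9 measured genes on the deposited values (diamond), with 1 array left out (triangles) and under the other settings (circles), filled where limma's adjusted p was under 0.05. MUC1 stays between -2.59 and -2.35, while TFF2, GKN1 and CLDN18 fall on both sides of 0.

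Over all tested clusters 1393 were higher and 2683 lower (19.2% in all), and after median centring, which moved the median difference from 0.04 to 0.20, 2238 were higher and 1898 lower. Epithelial markers that AGS should carry had medians of 8.26 and 7.90 in ornithogalum cells, against 8.72 and 8.72 in vehicle cells. KRT19 and CLDN7 were lower among 8 (25%, against 12.6% of all clusters). Intestinal markers fell in 3 of 7 (LGALS4, VIL1 and CDH17), or 42.9% against 12.6%. CDX2 (log2 difference -0.81), CDX1 (0.15), SI (0.27) and APOA4 (0.28) did not pass. Of 8 fibroblast markers PDGFRA rose, and of 7 leukocyte markers CD68 rose (12.5% and 14.3%, against 6.57% of all clusters). Of 6 endothelial and erythroid markers 0 passed in limma, with 0 at an unadjusted p under 0.05. With so few genes per list these shares say nothing particular. The medians of these last 3 lists ranged from 3.17 to 4.07 over the ornithogalum arrays and from 3.08 to 4.03 over the vehicle arrays. The part of these markers in the differences above was not tested.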

How the data were processed

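Expression was measured in 2 ornithogalum and 2 vehicle arrays of AGS cells. The deposited values are log2 expression per transcript cluster and array, which per the submitters' processing notes the authors made with RMA (robust multi-array average) in Expression Console 1.1 from Affymetrix. For its background and scaling settings, the sources used here give nothing. The 4 arrays as deposited did not share one distribution. Over the tested clusters the medians were 4.477 and 4.622 for ornithogalum, against 4.714 and 4.704 for vehicle. The interquartile ranges were 2.443 and 2.565 for ornithogalum, against 2.716 and 2.709 for vehicle. What part this had in the differences was not tested. The table has 33297 clusters. The platform annotation gives 19461 of them 1 symbol, 1753 several and 12083 none; symbols were updated by gene number to RefSeq (19430 matched).

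The groups were compared with limma 3.58.1 in R 4.3.3 (lmFit, eBayes) over the 21214 clusters with a symbol, with no filter on dim clusters. The fit was first run on simulated data with known changes. An exact permutation test of 2 against 2 arrays cannot go below p = 0.333, so none was run. The 10 genes, 7 related lists (132 genes, 122 measured) and 5 marker lists (40 genes, 36 measured) were chosen with earlier results of these data known. A gene with several clusters was represented by the one of highest mean. Named genes are all 10 members, the called members of each related list (or the one of smallest p where none was called), chromosome neighbours and the 5 nearest patterns of MUC1 and SOX2. A called marker was also named, and some neighbours and mucins named without passing were picked after their values were seen. Alternatives covered the replicate block, leaving out each array, scaling, cluster filters, the eBayes prior and array weights.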

Additional observations from a re-analysis of the deposited data

How the results depend on the processing

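MUC1 kept its call in 11 of 13 other settings, PSCA in 10 of 13, SOX2 in 9 of 12 and TFF1 in 6 of 13, and none of these 4 changed direction. When either vehicle array was left out, 0 clusters passed in limma, in fits that take the spread from the ornithogalum pair alone (SD 0.258, against 0.14 for the vehicle pair). At an unadjusted p under 0.05 there were then 4 (without replicate 1) and 3 (without replicate 2) of the 9 genes and 4192 and 3986 clusters, and the differences of the 4 called genes kept their direction. Over the 4 settings that left out 1 array, 0 to 2 of the 9 genes were called higher and 0 to 4 lower, among related genes 0 to 17 higher and 0 to 19 lower, and among clusters 0 to 3054 higher and 0 to 4004 lower, each highest count without ornithogalum replicate 2. Across these 4 settings TFF2 ranged from -0.032 to 0.018, GKN1 from -0.13 to 0.22 and CLDN18 from -0.10 to 0.24. TFF2 was 0.13 with quantile scaling, 0.084 with cyclic loess and 0.15 with median centring, and GKN1 was -0.18 with quantile scaling and -0.22 with cyclic loess; none of these passed.

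Testing all 33297 clusters left 0 of the 9 genes higher and 1 lower (MUC1), 3 related genes higher and 5 lower, and 694 named clusters higher and 1446 lower. Keeping only brighter clusters left 4 of the 9 genes, since MUC6, TFF2, GKN1, CLDN18 and SOX2 were too dim. Of those kept, 0 were called higher and 4 lower, GATA6 among them (limma adjusted p = 0.0168). Median centring called 5 related genes lower and 2238 clusters higher. With the replicate block 7 related genes were lower, 2 of the 9 genes fell and 1 rose, and TFF1 had an adjusted p = 0.0516 in limma. The deviations of same-numbered arrays from their group means had a correlation of r = -0.0585 across clusters. With 2 arrays per group, differently numbered arrays give the same value with the opposite sign (r = 0.0585). Whether same-numbered arrays shared a culture or day was not tested. The causes of these shifts were not tested.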
